A study of Mus musculus with 6 samples.

Results

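The genes described here are 34 genes of amino acid handling in anti-viral CD4+ T cells: 19 cytosolic tRNA synthetases, the transcription factor Atf4 with 3 of its stress-response targets, and 11 enzymes that make asparagine, proline and serine or carry carbon units on folate. They were taken by name from a table of 15445 genes, and all 34 have a row in it. Of these, 32 passed the filter on low counts, as did 12987 genes in all. The libraries are bulk RNA from monoclonal transgenic CD4+ T cells of C57BL/6 mice, sorted from the spleen by CD4, Thy1.1 and CD25 on day 5 of an infection by LCMV, the lymphocytic choriomeningitis virus. One group is CD25-high and the other CD25-low, with 3 libraries each, numbered 1 to 3, where CD25 is the interleukin-2 receptor alpha chain. All 6 libraries are from infected mice, and the name of the transgenic line, its receptor and the age of the mice are not given in the labels used here. The labels do not say whether libraries came from separate animals, so p-values measure the spread between libraries, which may be technical.

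tRNA synthetases join each amino acid to its tRNA and so supply every ribosome. ATF4 is a transcription factor whose protein is made when the initiation factor eIF2 is phosphorylated, during amino acid shortage, endoplasmic reticulum stress and other stresses, and it switches on genes for amino acid synthesis, amino acid import and many synthetases. Serine synthesis feeds the folate cycle, which carries carbon units for purines and thymidylate, and activated T cells raise these pathways as they grow and divide. ATF4 is controlled largely at translation, which counts of RNA do not measure.

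Total counts ranged from 16787233 to 23567066 per library, and mitochondrial ribosomal RNA took 29.3% to 35.3% of them. Il2ra, the gene of the sort marker, had 432 to 1540 CPM (counts per 1000000 counts of the library, scaled by the TMM method) in CD25-high and 20.7 to 35.7 CPM in CD25-low libraries. The 7 T cell markers summed to 2350 to 2530 CPM in CD25-high and 2340 to 3210 CPM in CD25-low libraries. Of these, Cd3d (37.4 to 79.7 against 109 to 133 CPM) and Cd3g (54.8 to 106 against 133 to 179 CPM) were lower in CD25-high without overlap. So was Cd2 (126 to 140 against 155 to 222 CPM), as were 9.54% of all tested genes, while Cd3e, Cd4, Thy1 and Cd5 overlapped. The paired fit described below called Cd3d and Cd3g lower (edgeR adjusted p 0.0134 and 0.0135), and 2.9% of all tested genes. The B cell genes Cd79a, Ms4a1 and Pax5, the macrophage genes Adgre1 and C1qa, and Cd8a had no row. The 4 myeloid markers with a row, of 6 listed, summed to 26.8 to 87.6 against 12.9 to 42.4 CPM, mostly Itgam. The paired fit called Itgam higher (edgeR adjusted p 0.0013), as it did 1.73% of all tested genes. Csf1r also had a higher mean in CD25-high (2.25 against 1.43 CPM). Lyz2 (0.219 against 0.469 CPM) and Cd68 (5.23 against 6.47 CPM) had lower means there. The 3 CD8 and NK markers with a row, of 5 listed, summed to 12.8 to 26.5 against 4.70 to 8.81 CPM, mostly Klrk1. Klrk1 was called higher by the paired fit (edgeR adjusted p 0.035). DESeq2 called it too (adjusted p 0.00314), with 2.7% of the genes it tested. Cd8b1 also had a higher mean in CD25-high (4.49 against 2.05 CPM), and Klrb1c a lower mean (0.0355 against 1.03 CPM). The 3 plasma cell markers with a row, of 4 listed, summed to 48.9 to 66.0 against 25.8 to 42.7 CPM, mostly Xbp1, which other secretory and activated cells also express. Dendritic cell markers (3 of 5 with a row) summed to 6.54 to 18.2 against 6.73 to 16 CPM, and B cell markers (2 of 6 with a row) to 1.8 CPM or less in every library. The part of these genes in the results below was not tested. In bulk RNA, fewer cells that express a gene and less of its RNA per cell cannot be told apart.

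The 34 genes together made up 3400, 2400 and 2880 CPM in the CD25-high group (libraries 1 to 3, in that order throughout). In the CD25-low group they made up 2930, 1950 and 2270 CPM. The groups overlapped in this sum, and within each number the CD25-high library was the higher, by 1.16-fold, 1.23-fold and 1.27-fold. Of the 32 tested genes, 29 had a log2 fold change above 0 (CD25-high relative to CD25-low), against 50.8% of all tested genes. Their median log2 fold change was 0.31 and that of all tested genes was 0.01. The differences were small for single genes. By edgeR's quasi-likelihood test with Benjamini-Hochberg adjustment over all tested genes, 0 of the 32 passed an adjusted p of 0.05, where 0.655% of all tested genes did (0.154% higher and 0.501% lower). At an unadjusted p under 0.05 there were 2 of the 32, Iars and Asns, both higher, where 4.69% of all tested genes were higher and 6.39% lower. DESeq2 called 0 of the 32, and 2.7% of the genes it tested.

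A fit that pairs same-numbered libraries through a replicate block called 1 of the 32, Iars, as higher in CD25-high cells. That fit, whose values are given below as paired, called 4.63% of all tested genes, 1.73% higher and 2.9% lower. At an unadjusted p under 0.05 it had 11 of the 32 higher (8.68% of all tested genes) and 1 lower (9.38%). In 17 of the 32 genes, or 53.1%, the CD25-high library was the higher in all 3 numbered pairs, where 19.9% of all tested genes had this pattern. Qars was the 1 gene lower in all 3 pairs, as were 19.4% of all tested genes. In 3 genes, Asns, Ddit3 and Gars, every CD25-high library was above every CD25-low library, and 7.41% of all tested genes were separated in that direction. Qars alone of the 32 was separated the other way, as were 9.54% of all tested genes. The genes share libraries and are not independent of each other, so these counts are descriptions.

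**Figure D1:**
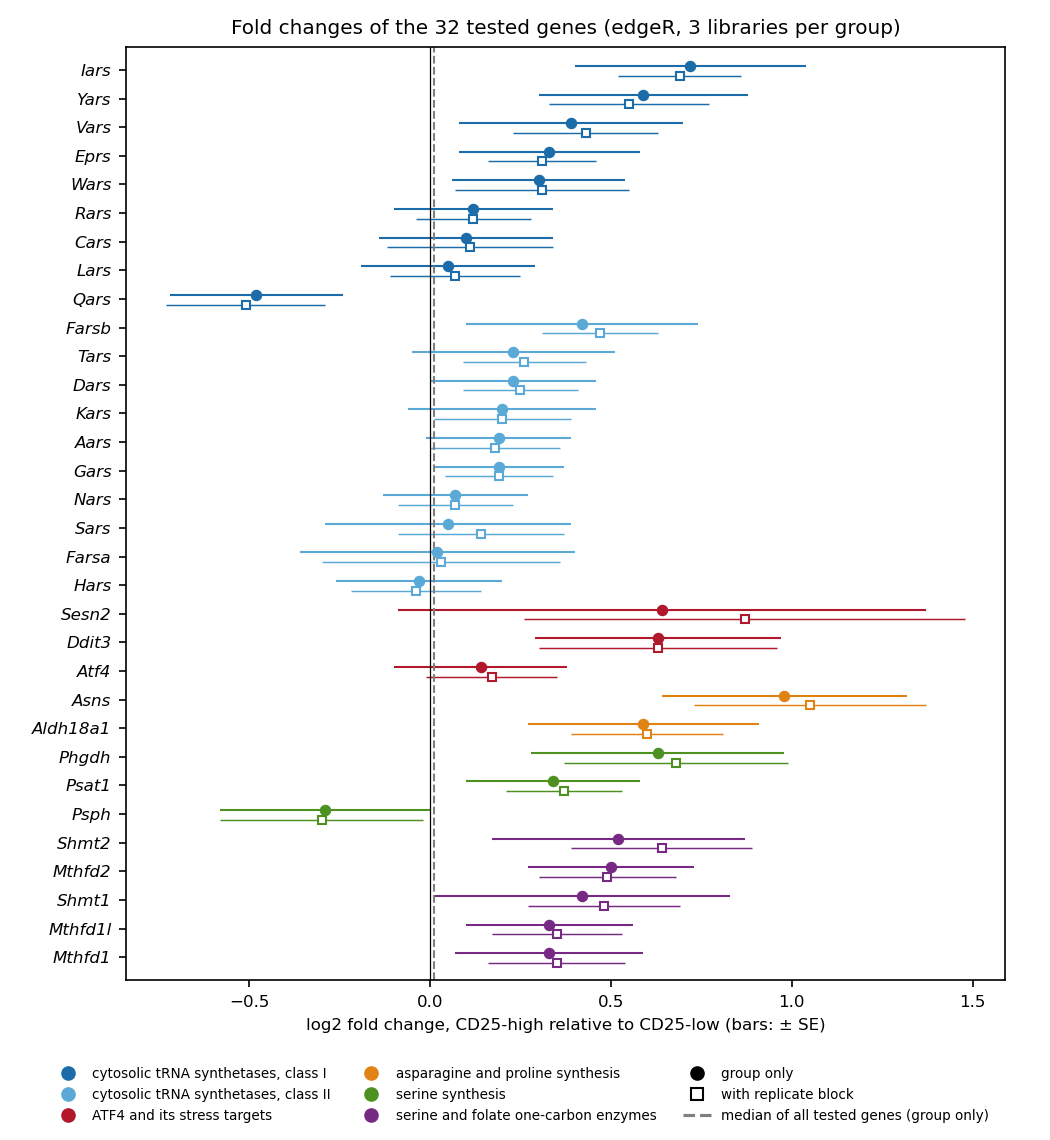
The horizontal axis gives the log2 fold change of CD25-high relative to CD25-low cells with its standard error, for each of the 32 tested genes (vertical axis), by the fit with the group only (circles) and with the replicate block (squares). The dashed line is the median of all tested genes, 0.01, and 29 of the 32 circles lie to the right of 0.

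The libraries numbered 1 stood somewhat above the others in many of these genes. In CD25-high library 1, 24 of the 32 tested genes were above the mean of libraries 2 and 3, and in CD25-low library 1, 25 of 32 were. In 19 of the 32, or 59.4%, this held in both groups, against 28.3% of all tested genes. The median excess of library 1 was 0.25 (log2) in the CD25-high and 0.41 in the CD25-low group, and over all tested genes it was -0.02 and -0.05. CD25-low library 2 was the lowest of the 6 for the summed level. The median log2 ratio of CD25-high to CD25-low over the 32 genes was 0.17 in pair 1, 0.31 in pair 2 and 0.36 in pair 3. It was above 0 for 22, 26 and 27 of the 32 genes in these pairs. Without CD25-low library 2 the median log2 fold change was 0.13, and without CD25-high library 1 it was 0.18.

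**Figure D2:**
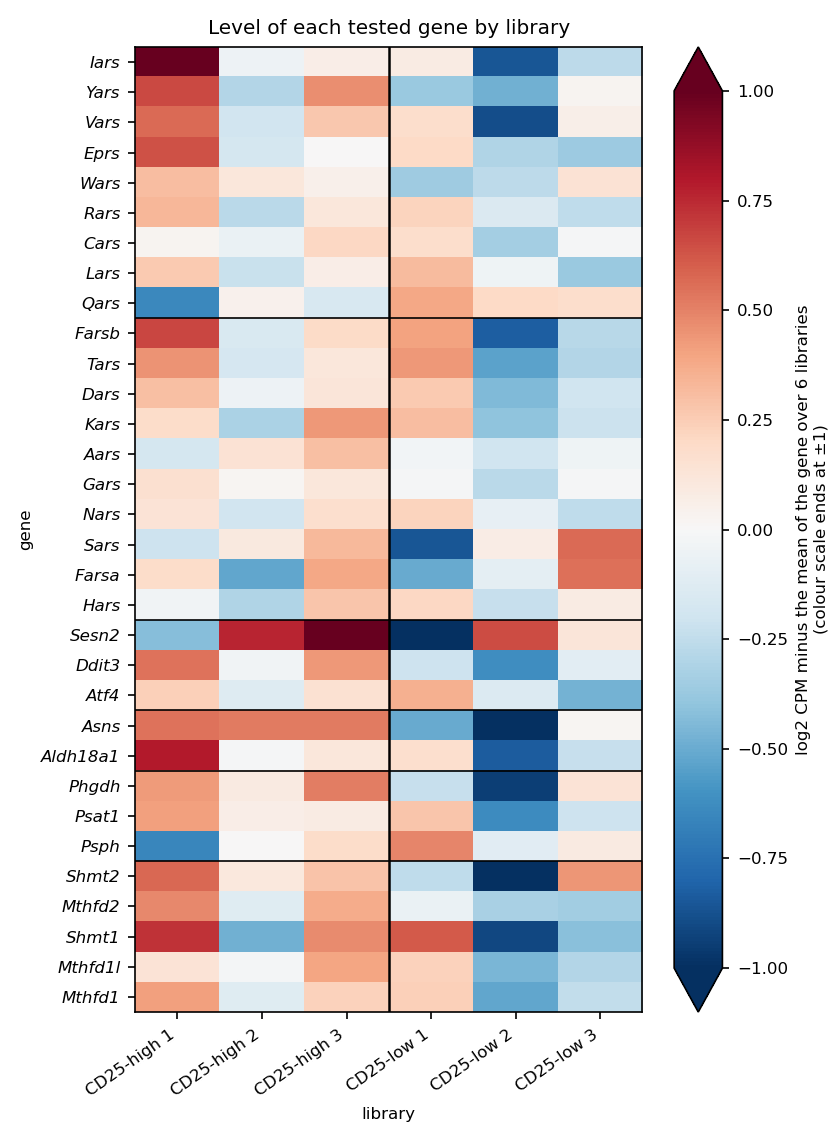
Colour gives the log2 CPM of each tested gene (rows, by functional group) in each library (columns), relative to the mean of that gene over the 6 libraries, with the scale ending at ±1. CD25-high library 1 is the reddest column for the synthetases Iars and Eprs, CD25-low library 2 is blue for most genes, and Psph, Qars and Sesn2 are the bluest rows in CD25-high library 1.

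ATF4 with a C/EBP partner is known to bind a DNA element with the consensus TGATGNAAN, so promoters of the listed genes were searched for it. RefSeq promoters (build GRCm38.p6, 250 bases before to 50 after each start) were matched for 27 of the 34 genes, without Cars, Hars, Lars, Nars, Rars, Vars and Wars. The last 30 bases of 22 of the 28 promoters lie unbroken in a GENCODE transcript of their gene. Those of Dars, Kars, Mthfd1, Mthfd1l, Sars and Trib3 do not, so the start of Trib3 below is less certain. On either strand, 8 of the 27 genes, or 29.6%, held the element, against 4.5% of 27025 genes. By promoter, 28.6% of 28 held it against 3.95% of 32851. The list holds genes that ATF4 is known to switch on, so the choice of genes itself favours the element. These shares are descriptions only. A match is a stretch of letters and was not tested for binding here. Matches in these 8 genes, shown because they place the element beside the synthetase and asparagine genes described below, are printed 5′ to 3′ on the strand that reads TGATG, with the element in capitals.
Aars: cagagcgctcTGATGAAAAgtgacccgct
Asns: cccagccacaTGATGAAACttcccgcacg
Gars: gcccggtgcaTGATGAAATagcgcagcca
Iars: cgtctggaggTGATGCAATactgacagtg
Pycr1: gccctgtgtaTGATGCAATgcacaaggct
Tars: gctaaccagcTGATGCAACgggactcctg
Trib3: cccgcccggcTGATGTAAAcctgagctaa
Yars: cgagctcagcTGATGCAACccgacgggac

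In Iars the element lies 7 bases after the RefSeq start, on the strand opposite to the gene (chr13:49682126-49682154, minus strand). The positions in brackets, here and below, cover all 29 printed bases, with the bases that flank the element. In Asns the element lies 15 bases before the RefSeq start on the strand of the gene (chr6:7693214-7693242, minus strand). That stretch lies inside the GENCODE span of Asns, which reaches 7693254, so RefSeq and GENCODE place the start differently. The GENCODE spans of Aars, Iars, Pycr1, Tars and Yars also begin before their RefSeq starts, and those of Gars and Trib3 begin after them. All distances here are from RefSeq starts. In Gars the element lies 23 bases before the start, opposite to the gene (chr6:55037960-55037988, minus strand). Those of Tars (chr15:11399656-11399684, plus strand) and Yars (chr4:129189896-129189924, plus strand) lie 8 bases before and 4 bases after the start. That of Aars lies 9 bases after the start (chr8:111033840-111033868, minus strand). The element of Pycr1 lies 95 bases before the start (chr11:120643833-120643861, minus strand), and that of Trib3 14 bases after it (chr2:152344029-152344057, plus strand). Of the 6 tested genes with a match, 5 were higher in the CD25-high library of all 3 pairs (Tars by a log2 ratio of only 0.01 in pair 1), and Aars was higher in 2 pairs. Of the 19 tested genes with a promoter and no match, 11 were higher in all 3 pairs. Among the listed genes without a matched promoter, only Vars was. Over all tested genes, 19.9% were higher in all 3 pairs. The difference between these counts was not tested.

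Among the 19 cytosolic synthetases the median log2 fold change was 0.19, with 17 above 0 and 2 below. Synthetases fall into 2 structural classes. The 9 counted in class I ran from -0.48 to 0.72 (median 0.30) and the 10 of class II from -0.03 to 0.42 (median 0.19). Eprs was counted in class I by its glutamyl part, although its prolyl part is of class II. Of the 19, 0 passed without the block and 1 with it. Summed over the 19, the level was 2370, 1620 and 1960 CPM in the CD25-high group, and 2000, 1410 and 1580 CPM in the CD25-low group. The sum of each number was 1.15-fold to 1.24-fold higher in CD25-high cells, while libraries of different numbers overlapped.

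Iars, the isoleucyl-tRNA synthetase, had the smallest p of the class I enzymes. It had 364, 173 and 188 CPM in the CD25-high group, and 190, 99.3 and 150 CPM in the CD25-low group. The groups overlapped, since CD25-low library 1 was above CD25-high libraries 2 and 3, but each CD25-high library was above the CD25-low library of its number. Unpaired, the log2 fold change was 0.72 ± 0.32 (± is the SE for fold changes), at an edgeR adjusted p of 0.444. Paired through the replicate block, it was 0.69 ± 0.17 at an adjusted p of 0.0302. Unpaired and without CD25-high library 1 it was 0.30. Paired, it lost the call without pair 1 (adjusted p 0.132) or pair 2 (0.113), and kept it without pair 3 (0.0102). Iars (ENSMUSG00000037851, protein-coding) occupies chromosome 13 from 49682100 to 49734267 on the plus strand (mm10).

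Yars, the tyrosyl-tRNA synthetase, had 56.2, 29.0 and 49.0 CPM in the CD25-high group and 27.5, 25.5 and 36.3 CPM in the CD25-low group. CD25-high library 2 lay within the range of the CD25-low libraries. Its log2 fold change of 0.59 ± 0.29 did not pass (edgeR adjusted p 0.491 unpaired, 0.207 paired). Qars, the glutaminyl-tRNA synthetase, went the other way and is named for that after its values were seen. It had 25.1, 40.4 and 35.2 CPM in the CD25-high group and 51.4, 45.2 and 44.3 CPM in the CD25-low group. Its groups did not overlap, and the log2 fold change of -0.48 ± 0.24 did not pass either (adjusted p 0.502 unpaired, 0.248 paired).

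The other enzymes counted in class I were those for cysteine (Cars), glutamate and proline (Eprs), leucine (Lars), arginine (Rars), valine (Vars) and tryptophan (Wars). Their log2 fold changes ran from 0.05 for Lars to 0.39 for Vars. Eprs, which joins both glutamate and proline, had 362 ± 113 against 288 ± 64.2 CPM (SD, n = 3 each). CD25-high library 1 was the highest, at 492 CPM, with 280 and 316 CPM in CD25-high libraries 2 and 3. Lars and Rars changed sign without CD25-high library 1 (-0.07 and -0.02), and Cars without CD25-low library 2 (-0.03). No direction is given for these genes.

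Farsb, the beta subunit of the phenylalanyl-tRNA synthetase, had the smallest p of class II. It had 168, 95.2 and 121 CPM in the CD25-high group and 140, 59.8 and 87.4 CPM in the CD25-low group. Libraries numbered 1 were the highest and those numbered 2 the lowest in both groups, and each CD25-high library was above its CD25-low partner. The log2 fold change was 0.42 ± 0.32 (edgeR adjusted p 0.683 unpaired, 0.134 paired). Farsb shares 248 exonic bases with Sgpp2 on the opposite strand, which had 779 counts against 12969. Farsa, the alpha subunit of the same enzyme, had 12 ± 3.57 against 11.8 ± 4.42 CPM (SD, n = 3 each), a log2 fold change of 0.02 ± 0.38 whose sign changed in 5 of 19 alternative analyses. The difference between the subunits was not tested.

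Gars, the glycyl-tRNA synthetase of cytosol and mitochondria, had 152, 138 and 147 CPM in the CD25-high group and 135, 113 and 135 CPM in the CD25-low group. The values lay close together, and the groups did not overlap. The log2 fold change was 0.19 ± 0.18 (adjusted p 0.768 unpaired, 0.562 paired). The remaining class II enzymes, for alanine (Aars), aspartate (Dars), histidine (Hars), lysine (Kars), asparagine (Nars), serine (Sars) and threonine (Tars), had log2 fold changes from -0.03 for Hars to 0.23 for Dars and Tars. Hars, Kars, Nars and Sars changed sign in some alternative analyses, so no direction is given for them. Aars shares 1326 exonic bases on the same strand with Exosc6, which has no row, so its count is uncertain. Sars had 18, 34.3 and 48.3 CPM in the CD25-low group, a wider span than its 28.3, 35 and 40.8 CPM in the CD25-high group.

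A number of synthetases sit in a large multisynthetase complex in the cytosol. Its 7 listed enzymes (Dars, Eprs, Iars, Kars, Lars, Qars and Rars) had a median log2 fold change of 0.20, and the 12 outside it 0.19. Of genes beside the listed ones, Mars, the methionyl-tRNA synthetase of that complex, had 78.6, 62.2 and 73.4 CPM in the CD25-high group and 57.2, 33.1 and 40.9 CPM in the CD25-low group, with no overlap. Mars had a log2 fold change of 0.71 ± 0.25 unpaired, at an edgeR adjusted p of 0.315. Paired, it was called higher (0.74 ± 0.19, adjusted p 0.0402). Mars was 1 of 6 further cytosolic genes, with the complex scaffolds Aimp1, Aimp2 and Eef1e1, the synthetase relative Tarsl2 and the tRNA exporter Xpot. All 6 had log2 fold changes above 0 (median 0.27), and 0 passed without the block.

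Mitochondria have synthetases of their own. Of the 17 tested, 10 had a log2 fold change above 0 and 7 below, with a median of 0.08, and 0 passed in either fit. The smallest p-values were those of Hars2, the mitochondrial histidyl enzyme (17.8 to 22.1 against 22 to 32.6 CPM, log2 fold change -0.51 ± 0.26, adjusted p 0.515), and of Pars2, the prolyl enzyme (4.59 ± 2.15 against 7.84 ± 2.63 CPM, -0.77 ± 0.46, adjusted p 0.588). Hars2 and Hars share 195 exonic bases on opposite strands. Lars2 ran from 171 to 766 CPM and was lowest in library 1 of each group and highest in library 3, as was Gm42418, a transcript that overlaps ribosomal RNA sequence (0.355% to 2.03% of counts), so the Lars2 count is uncertain. The difference between cytosolic and mitochondrial synthetases was not tested.

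Atf4 itself had 119, 92.1 and 112 CPM in the CD25-high group and 129, 91.7 and 72.5 CPM in the CD25-low group. The groups overlapped only through CD25-low library 1, which was the highest of the 6. CD25-high library 2 was barely above CD25-low library 2. Its log2 fold change was 0.14 ± 0.24 (edgeR adjusted p 0.884 unpaired, 0.695 paired), and without CD25-low library 3 it was -0.04. Atf4 (ENSMUSG00000042406) occupies chromosome 15 from 80255184 to 80257541 on the plus strand (mm10).

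Ddit3, which encodes CHOP, a transcription factor of the stress response, had 12.9, 8.63 and 12 CPM in the CD25-high group and 7.66, 5.75 and 8.23 CPM in the CD25-low group. The groups did not overlap, by a narrow margin between CD25-high library 2 and CD25-low library 3. A log2 fold change of 0.63 ± 0.34 did not pass (adjusted p 0.549 unpaired, 0.351 paired). Ddit3 shares 68 exonic bases with Mars on the opposite strand, and Mars had 6667 counts over the 6 libraries against 1076 for Ddit3. It also shares 105 bases with another annotated gene of the same symbol that has no row. Since no strand setting is stated, the Ddit3 count is uncertain.

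Sesn2, a stress-induced inhibitor of the growth kinase complex mTORC1 that senses leucine, had 1.47, 3.35 and 4.12 CPM in the CD25-high group and 0.438, 3.11 and 2.15 CPM in the CD25-low group. These rest on 8 to 73 counts, the fewest in CD25-low library 1, and the groups overlapped. At these counts the log2 fold change was 0.64 ± 0.73 (adjusted p 0.815 unpaired, 0.504 paired). Trib3, a pseudokinase that dampens ATF4, did not pass the filter on low counts. It had 0, 4 and 0 counts in CD25-high and 33, 4 and 2 counts in CD25-low libraries 1 to 3, so its reads came mostly from a single library.

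The sestrin family differed in a gene outside the list. Sesn3 had 4.53, 6.60 and 4.17 CPM in the CD25-high group and 54.1, 51.6 and 44.7 CPM in the CD25-low group, far apart with no overlap. It fell in CD25-high cells, with a log2 fold change of -3.29 ± 0.28 and an edgeR adjusted p of 0.00103. Sesn1, the remaining family member, had 7.64 ± 1.31 against 8.75 ± 2.57 CPM (SD, n = 3 each, -0.19 ± 0.36, adjusted p 0.895). The difference between Sesn2 and Sesn3 was not tested.

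Upstream of ATF4, 12 genes of eIF2 kinases, eIF2 and eIF2B subunits and eIF2 phosphatases were tested. Of these, 7 had a log2 fold change above 0 and 5 below (median 0.08), and 0 passed in either fit. Eif2b3, a subunit of the exchange factor eIF2B, had 31.2 ± 12.6 against 18.8 ± 4.74 CPM (SD, n = 3 each, log2 fold change 0.73 ± 0.33, adjusted p 0.451), and Eif2ak3, which encodes the kinase PERK, 22.7 ± 7.26 against 14 ± 3.95 CPM (0.70 ± 0.33, adjusted p 0.467). Of 24 further genes linked to ATF4, 7 had no row and 14 were tested, with 9 above 0 and 5 below (median 0.21). Ddit4, an inhibitor of mTORC1 that stress also induces, had 3.29, 8.04 and 10.5 CPM in the CD25-high group and 7.93, 23.2 and 32.5 CPM in the CD25-low group. It was lower on the CD25-high side of every pair, at -1.54 ± 0.54 (log2, adjusted p 0.318), and it was called lower in the paired fit (-1.48 ± 0.29, adjusted p 0.00998). No other gene of these 14 was called in either fit.

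Asns, asparagine synthetase, had the highest log2 fold change of the 32 tested genes. It had 17.4, 17.1 and 17.1 CPM in the CD25-high group, nearly the same value each time, and 8.42, 5.58 and 12.1 CPM in the CD25-low group. The groups did not overlap. The log2 fold change came to 0.98 ± 0.34 unpaired (edgeR adjusted p 0.315) and 1.05 ± 0.32 paired (adjusted p 0.0884), and passed in neither fit. Over 19 alternative analyses its log2 fold change lay between 0.74 and 1.34 and its adjusted p between 0.0727 and 0.669. Asns (ENSMUSG00000029752) occupies chromosome 6 from 7675169 to 7693254 on the minus strand (mm10).

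Proline is made from glutamate by Aldh18a1 and the reductases of the Pycr family. Aldh18a1 had 59.7, 34.2 and 37.2 CPM in the CD25-high group and 38.7, 19.3 and 29.4 CPM in the CD25-low group. CD25-low library 1 lay above CD25-high libraries 2 and 3, and each pair was higher on the CD25-high side. For Aldh18a1 the log2 fold change was 0.59 ± 0.32 (adjusted p 0.548 unpaired, 0.136 paired). Pycr1 was close to absent, with 7, 9 and 2 counts in CD25-high and 0, 1 and 18 in CD25-low libraries 1 to 3, and did not pass the filter. Among 10 tested genes of proline, glutamate and aspartate metabolism outside the list, Got1, the cytosolic aspartate aminotransferase, had 137, 57.0 and 71.6 CPM in the CD25-high group and 41.4, 29.1 and 41.7 CPM in the CD25-low group, with no overlap. Unpaired, Got1 did not pass in edgeR (log2 fold change 1.24 ± 0.33, adjusted p 0.156). It was called higher in the paired fit (1.16 ± 0.21, adjusted p 0.00625) and by DESeq2 (adjusted p 0.0179). The other 9 were called in neither edgeR fit.

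**Figure D3:**
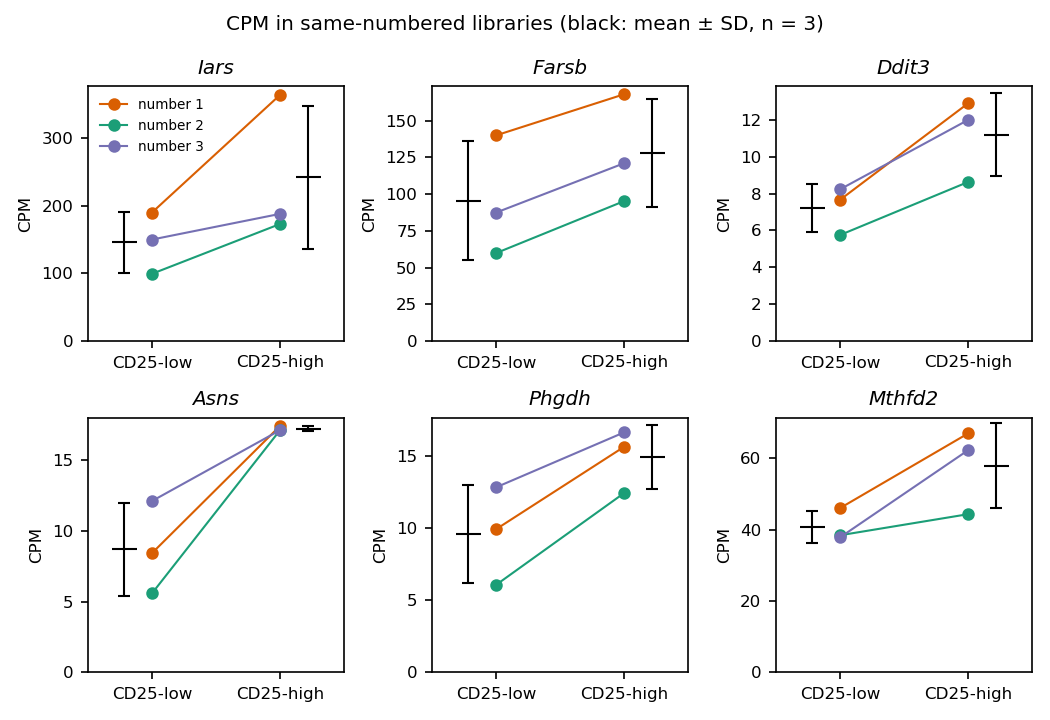
Each panel gives the CPM of 1 gene in CD25-low and CD25-high libraries, with same-numbered libraries joined and the mean ± SD (n = 3) in black, for the gene of smallest p in each of the 6 functional groups. Every line rises to the CD25-high side in these 6 genes, the Asns values meet near 17 CPM, and the groups overlap for Iars, Farsb, Phgdh and Mthfd2.

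Serine is made from a glycolytic intermediate by Phgdh, Psat1 and Psph in turn. Phgdh, the first enzyme, had 15.6, 12.4 and 16.6 CPM in the CD25-high group and 9.90, 6.05 and 12.8 CPM in the CD25-low group. The groups overlapped only between CD25-high library 2 and CD25-low library 3. For Phgdh the log2 fold change was 0.63 ± 0.35 (edgeR adjusted p 0.556 unpaired, 0.258 paired). Psat1, the next enzyme, had 405, 318 and 323 CPM in the CD25-high group and 368, 197 and 264 CPM in the CD25-low group. CD25-low library 1 was the exception to a higher CD25-high group, and the log2 fold change was 0.34 ± 0.24 (adjusted p 0.669 unpaired, 0.218 paired). Psph, the last enzyme, had 24.3 ± 6.82 against 29.7 ± 6.40 CPM (SD, n = 3 each), a log2 fold change of -0.29 ± 0.29 (adjusted p 0.781). It shares 452 exonic bases with a transcript of Cct6a on the opposite strand that had 27679 counts against 3237 for Psph, so its count is uncertain.

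The folate enzymes come in cytosolic and mitochondrial forms. All 5 had log2 fold changes above 0, from 0.33 to 0.52 (median 0.42), and 0 passed in either fit. Mthfd2, the mitochondrial dehydrogenase that oxidises methylene-folate, had 66.9, 44.3 and 62.2 CPM in the CD25-high group and 46.0, 38.4 and 37.8 CPM in the CD25-low group. Only CD25-high library 2 came below a CD25-low library, and the log2 fold change was 0.50 ± 0.23 (edgeR adjusted p 0.457 unpaired, 0.197 paired). Shmt2, which takes a carbon unit from serine in mitochondria, had 81.7, 59.2 and 66.9 CPM in the CD25-high group and 46.0, 24.7 and 74.7 CPM in the CD25-low group. Pair 3 ran against pairs 1 and 2, and the log2 fold change was 0.52 ± 0.35 (adjusted p 0.643 unpaired, 0.177 paired). Paired and without pair 3 it was 1.05, at an adjusted p of 0.0164.

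The cytosolic enzyme Shmt1 had 55.4 ± 21.3 against 41.5 ± 23.3 CPM (SD, n = 3 each) and a log2 fold change of 0.42 ± 0.41. It shares 184 exonic bases with Smcr8 on the opposite strand, which had 8398 counts against 5569. Mthfd1, the cytosolic enzyme of several folate steps, had 52.8 ± 9.55 against 42.1 ± 11.5 CPM (0.33 ± 0.26). Mthfd1l, which releases formate from mitochondria, had 106 ± 15.2 against 84.6 ± 22 CPM (0.33 ± 0.23). The edgeR adjusted p-values of Shmt1, Mthfd1 and Mthfd1l were 0.773, 0.698 and 0.666. The intervals of ± SE of the 2 cytosolic and 3 mitochondrial forms overlapped, and no difference between compartments was tested.

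Further folate and methionine cycle genes had a median log2 fold change of 0.33, with 15 of 18 tested above 0 and 0 called in either fit. Ggh, which trims the polyglutamate tail of folate, had 15.7 ± 4.38 against 7.72 ± 1.72 CPM (SD, n = 3 each, 1.02 ± 0.34, edgeR adjusted p 0.304). Sfxn1, the mitochondrial serine transporter, had 153 ± 33.1 against 105 ± 24.3 CPM (0.55 ± 0.24, adjusted p 0.435). Purine synthesis, which uses the carbon units of folate, had all 12 tested genes above 0 (median 0.37), with 0 called unpaired and 2 called higher in the paired fit.

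Of these, Paics had 785, 692 and 598 CPM in the CD25-high group and 465, 417 and 437 CPM in the CD25-low group, and its groups did not overlap. The log2 fold change of Paics was 0.65 ± 0.18 (edgeR adjusted p 0.186 unpaired, 0.0190 paired). Gart, whose groups overlapped, had 164, 62.0 and 103 CPM in the CD25-high group and 97.7, 47.0 and 54.4 CPM in the CD25-low group (0.72 ± 0.37, adjusted p 0.520 unpaired, 0.0400 paired). Paics shares 272 exonic bases with Ppat, and Gart 1014 with Gm15964, on opposite strands.

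**Figure D4:**
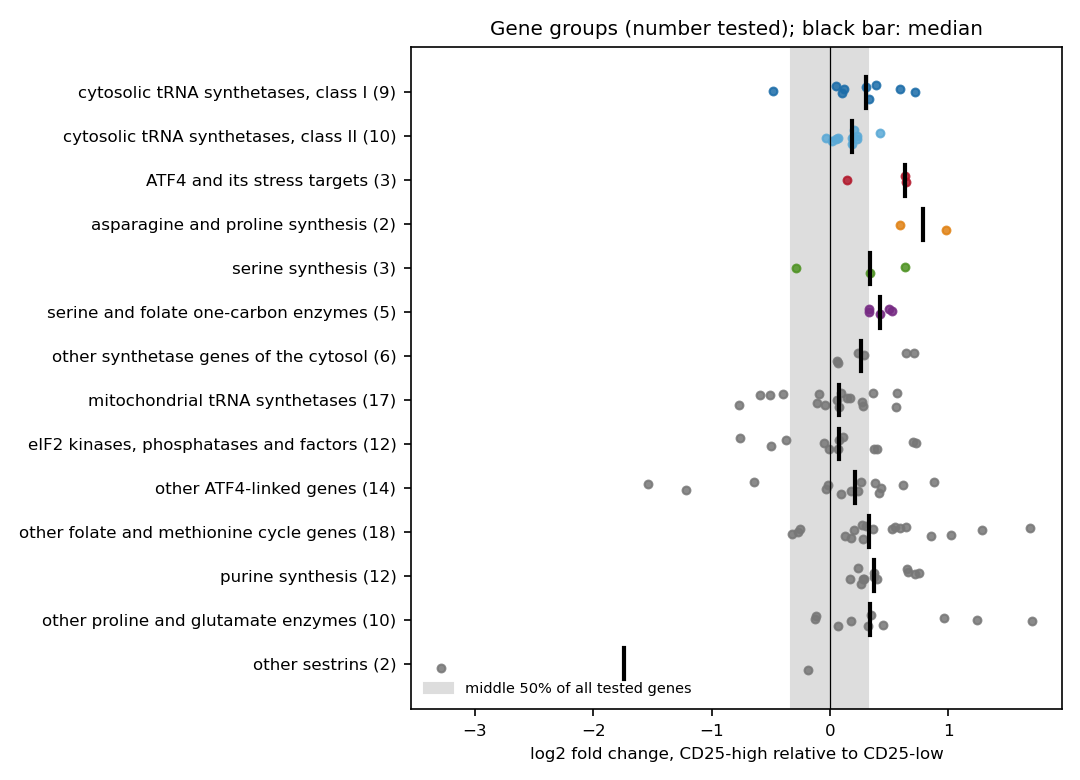
Each point is the log2 fold change (CD25-high relative to CD25-low) of 1 tested gene, by functional group, with the number tested in brackets and the median as a black bar. The grey band holds the middle 50% of all tested genes, and the medians of the listed groups (coloured) lie between 0.19 and 0.78, while those of mitochondrial synthetases and of the eIF2 genes are 0.08.

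Levels between genes were compared per length, as CPM per kilobase of merged annotated exons over the 6 libraries. Psat1 was the highest of the 34, at 73.5 CPM per kilobase, followed by Nars at 47.9, Gars at 43.8, Atf4 at 43.5 and Farsb at 42.7. Nars, Gars, Atf4 and Farsb did not differ from each other beyond their spread between libraries. Iars had 45.8 ± 20.2 CPM per kilobase in the CD25-high and 27.7 ± 8.59 in the CD25-low group (SD, n = 3). The lowest were Sesn2 at 0.702, Trib3 at 0.178 and Pycr1 at 0.0752 CPM per kilobase. Eprs moved most with the length used, from 18 over 18102 merged exonic bases to 66.3 over the 4906 bases of its principal transcript, which takes it from rank 12 to rank 3.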

How the data were processed

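The authors deposited a table of raw read counts by Ensembl gene ID for 3 CD25-high and 3 CD25-low libraries. Libraries were made by the NuGEN Ovation RNA-Seq System v2, an amplifying kit that can alter relative levels, per the labels' protocols. The submitters' processing notes list Novoalign and DESeq2 and the builds mm10 and hg19, with no role for any. Which counter, annotation and strand setting the authors used is not given in the sources used here. No row totals under 10. Names, positions and exons came from GENCODE M21 (GRCm38, the assembly of mm10), with newer symbols accepted.

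Counts were tested with edgeR 4.0.16 in R 4.3.3 (quasi-likelihood F test, TMM factors, filterByExpr with minimum count 10 and total 15, group as the only term, Benjamini-Hochberg adjustment over 12987 genes). The SE was taken as |log2 fold change| divided by the root of F. Depth was 16787233 to 23567066 counts per library. Fits were run on simulated data with planted changes larger than any found among the tested members, so that run does not bear on differences of their size.

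Over the 2000 most variable genes, deviations of same-numbered libraries from group means correlated at 0.34, 0.19 and 0.16, each above the limit of 0.1. On that ground the numbers were used as pairs (the paired fit, with a replicate block), although no label states a shared animal or day. CD25-high library 2 and CD25-low library 3 reached 0.13 as well.

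Members and lists were chosen with earlier results of these data known. Of the 34 members, those called in either fit and the 2 of smallest p in each of 6 functional groups were given in full. In each list of further genes, up to 3 called genes, or the 2 of smallest p, were named. Alternatives were DESeq2 1.42.0, limma 3.58.1 (voom), other scaling and filters, thinned counts, removal of mitochondrial and the 50 most abundant genes, and libraries or pairs left out. The length of the principal transcript was an alternative chosen after seeing the data. Of the promoter matches found and the marker genes listed, 1 each is not reported here.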

Additional observations from a re-analysis of the deposited data

How the results depend on the processing

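With the replicate block, 1 of the 32 tested genes was called (Iars, log2 fold change 0.69), and with the block and without pair 3 there were 2 (Iars and Shmt2, 0.88 and 1.05). The other 17 alternatives called 0. The median log2 fold change of the 32 genes lay between 0.13 and 0.46 with 1 library left out, and between 0.26 and 0.36 in the other analyses. Over all genes, 85 were called (20 higher, 65 lower). DESeq2 called 376, the replicate block 601, and the block without pair 1, 2 or 3 called 461, 486 and 536. With 1 library left out there were 22 to 130, the highest without CD25-high replicate 1. Of 608 values for single genes, 582 kept direction and side of the threshold, 3 passed it and 23, in 10 genes, changed sign. With the block and without pair 1 these were Farsa (-0.29), Hars (0.06), Sars (-0.11) and Psph (0.10). With the block and without pair 3 they were Lars (-0.11), Rars (-0.00), Kars (-0.01), Nars (-0.09) and Atf4 (-0.05). With 1 library left out, log2 fold changes reached Lars -0.10 to 0.24, Rars -0.02 to 0.28, Farsa -0.19 to 0.35, Hars -0.18 to 0.10, Sars -0.25 to 0.41, Cars -0.03 to 0.22, Nars -0.03 to 0.21 and Atf4 -0.04 to 0.39. The cause was not tested. Counts are low for Sesn2, Trib3 and Pycr1, so their levels are imprecise.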
